A study of Mus musculus with 4 samples.

Results

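The genes described here encode the subunits of the transcription factor NF-κB and proteins that regulate it, among them its feedback inhibitors. They were read in myeloid-derived suppressive cells (MDSCs) of the bone marrow of mice with and without lysosomal acid lipase (LAL). 10 genes were listed by name, and 9 of them were measured among the 19938 genes of the array that have a probe set naming 1 gene. They are *Rela*, *Relb*, *Rel*, *Nfkb2*, *Nfkbia*, *Nfkbie*, *Nfkbiz*, *Bcl3* and *Tnfaip3*, each read by 1 probe set. *Nfkb1* was not analysed here.

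Affymetrix Mouse Gene 1.0 ST arrays were hybridised with RNA of MDSCs from wild type mice (*lal+/+*, 2 arrays) and from LAL knock-out mice (*lal−/−*, 2 arrays). All mice were 5 months old and on FVB/N after 10 generations of back-crossing, and no other treatment or allele is given for either genotype. The labels call the cells CD11b and Gr-1 positive, while the methods describe magnetic selection with an antibody to Ly6G. The methods give a number of mice, but the sources used here do not say how these mice were divided among or pooled for the arrays, so that p-values measure the spread between these arrays only, which may be technical. The knock-out is of the whole animal, and the marrow cells other than MDSCs lack LAL as well.

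NF-κB is a dimer of Rel family proteins. RelA (p65), RelB and c-Rel carry a transactivation domain, whereas p50 and p52 are cut from the precursors encoded by *Nfkb1* and *Nfkb2*. In resting cells inhibitors of the IκB family hold the dimers in the cytoplasm, and receptors for microbial products and for tumor necrosis factor release them through the IκB kinase (IKK) complex. Active NF-κB then induces its own inhibitors, above all IκBα and the ubiquitin-editing enzyme A20, which ends the response. In neutrophils and MDSCs the pathway is known for inflammatory cytokine expression and for survival.

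Promoter sequence of these genes is shown because this feedback runs through NF-κB binding sites, called κB sites, close to the start of the genes. RefSeq windows (build GRCm38.p6) of the 250 bases before a gene start were present for 7 of the 10 genes, and no window was used for *Nfkb1*, *Relb* and *Nfkbiz*. The κB motif was searched on both strands as 10 letters, namely GG, 2 purines, any base, A or T, 2 pyrimidines and CC. It was found in 5 of these 7 genes, and in 6.75% of all 32851 windows of that length (7.64% of the 27025 genes with a window). No match lay in the windows of *Rela* and *Bcl3*. A match of letters is a description, and binding was not measured.

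*Rel* and *Nfkbia*, the members with the lowest and the highest log2 fold change below, are shown with the whole window, 5′ to 3′ on the strand of the gene, with the κB motif in capitals. That of *Rel* lies at chr11:23770970-23771219 on the minus strand and holds 2 overlapping matches. That of *Nfkbia* lies at chr12:55492648-55492897 on the minus strand, and its match begins 29 bases before the gene start.
Rel: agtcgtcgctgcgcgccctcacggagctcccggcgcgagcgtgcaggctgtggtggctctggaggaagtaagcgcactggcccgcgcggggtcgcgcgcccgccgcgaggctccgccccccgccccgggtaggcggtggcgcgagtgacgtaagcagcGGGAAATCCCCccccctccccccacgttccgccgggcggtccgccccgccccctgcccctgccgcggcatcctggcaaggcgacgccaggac
Nfkbia: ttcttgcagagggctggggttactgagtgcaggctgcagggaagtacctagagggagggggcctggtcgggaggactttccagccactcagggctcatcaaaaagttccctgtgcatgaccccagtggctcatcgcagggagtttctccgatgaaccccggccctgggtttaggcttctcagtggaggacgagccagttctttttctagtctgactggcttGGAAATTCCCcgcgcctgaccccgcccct

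The sites of the other matched genes are given with their flanks, to compare them with the site of *Nfkbia*. For *Nfkb2* (chr19:46304688-46304718, plus strand) 2 matches overlap. Its window holds 3 matches in all, and the windows of 2 further starts hold 1 match each. The sites of *Nfkbie* (chr17:45555584-45555613, plus strand) and *Tnfaip3* (chr10:19015411-19015432, minus strand) follow. The match of *Tnfaip3* shown begins 12 bases before the gene start, and is 1 of 2 in that window.
Nfkb2: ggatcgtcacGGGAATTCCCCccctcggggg
Nfkbie: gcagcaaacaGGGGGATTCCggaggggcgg
Tnfaip3: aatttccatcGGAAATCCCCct

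Values are log2 levels after quantile normalization of the 4 arrays, and a difference of 1 on this scale is a factor of 2. limma was used to compare the genotypes, with the Benjamini-Hochberg method applied across all 21789 probe sets with 1 gene name. Following the methods, a call needed a 2-fold difference or more together with an adjusted p under 0.05. *Lipa*, the gene of LAL, was 3.60-fold lower in *lal−/−* cells (adjusted p = 0.000417), and *Ly6g* was 7.37-fold and *Itgam*, which encodes CD11b, 2.27-fold higher. Between arrays of 1 genotype Pearson's r across probe sets was 0.984 and 0.987, and between genotypes it was 0.922 to 0.932. With 2 arrays against 2, an exact two-sided permutation test gives a p of 0.333 at the least, so that all tests rest on the model across genes.

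*Rel*, which encodes c-Rel, was the one member that passed, 2.62-fold lower in *lal−/−* MDSCs. The other 8 did not pass, with log2 fold changes between -0.08 and 0.61. Of the 9 members 0 were called higher and 1 lower, against 7.56% higher and 3.24% lower among all genes (10.8% in either direction). At an unadjusted p under 0.05 limma gave 4 higher and 1 lower, and an ordinary linear model gave 4 in either direction and called 0. Among all genes these shares were 26.2% higher and 14.4% lower with limma, and 28.5% in either direction with the ordinary model. The median log2 fold change of the 9 members was 0.17, and that of all genes was 0.08. The arrays of the 2 genotypes did not overlap for 8 of the 9 members, and for 65.7% of all genes.

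**Figure D1:**
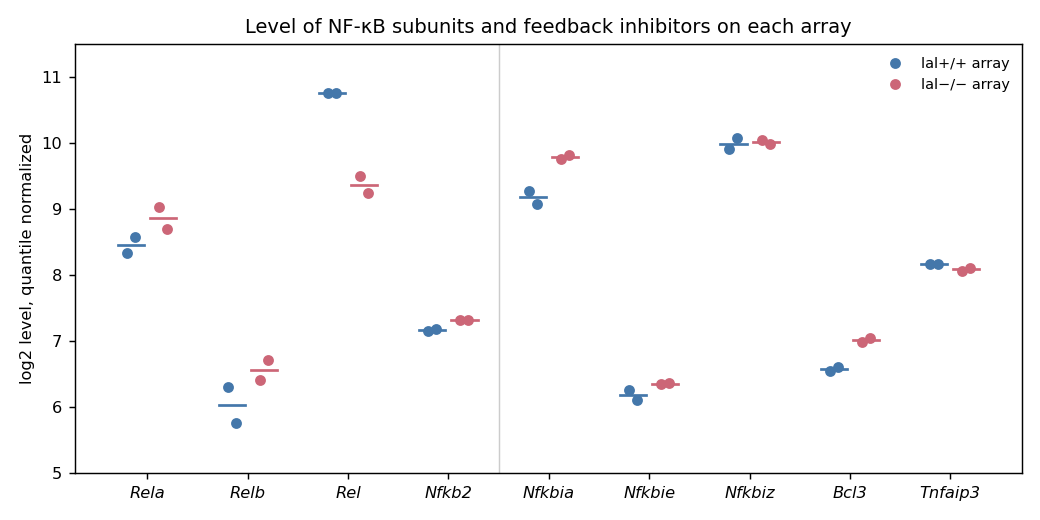
Log2 level (vertical axis, quantile normalized) of each gene on each array, 1 point for an array, colored by genotype. A bar marks the mean of the 2 arrays, and a line parts the Rel family subunits (left) from the IκB proteins and A20 (right). *Rel* is the gene with a wide gap, with both *lal+/+* arrays at 10.76 and the *lal−/−* arrays at 9.50 and 9.24, while the points of *Nfkbiz* lie among each other.

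Among the subunits, *Rel* read 10.76 and 10.76 in *lal+/+* cells against 9.50 and 9.24 in *lal−/−* cells. Both knock-out arrays lay well below both wild type arrays. c-Rel is the subunit best known from lymphocytes, where it serves activation and proliferation, and it is also expressed in myeloid cells. The log2 fold change was -1.39 (standard error 0.14, 95% interval -1.72 to -1.06, adjusted p = 0.000522 from limma), and only 1.67% of all genes had a lower value. This direction held under each scaling of the arrays, but the size did not. It was -0.95 (1.94-fold lower, adjusted p = 0.00118) with the values as deposited and -0.78 (1.71-fold lower, adjusted p = 0.00304) with the arrays shifted to a common median, both short of the fold threshold. Each array left out in turn gave -1.52 to -1.26, and *Rel* was called each time.

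*Rela*, which encodes p65, the subunit of the canonical dimer, read 8.34 and 8.57 in *lal+/+* and 9.03 and 8.69 in *lal−/−* cells. The knock-out arrays were the higher ones without overlap, though the nearest 2 arrays of different genotype lay close together. The log2 fold change of 0.41 (standard error 0.16, 95% interval 0.02 to 0.79, adjusted p = 0.106) did not pass. With the values as deposited it was 0.78 (adjusted p = 0.00519), still under a 2-fold change. *Rela* and *Rel* had values of opposite sign on the same arrays under each of the 3 scalings.

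*Relb*, the transactivating partner of p52 in the alternative pathway, read 6.30 and 5.76 in *lal+/+* and 6.41 and 6.71 in *lal−/−* cells. Its wild type mean of 6.03 lay below 6.79, the level under which 95% of 1023 probe sets of olfactory receptor genes lay on the *lal+/+* arrays, and such genes are silent in most tissues. On the *lal−/−* arrays that level was 6.29, and the *Relb* mean of 6.56 there lay above it but under 6.79. Of all 19938 genes 12669 lay below the level of their genotype in *lal+/+* and 9446 in *lal−/−* cells. The groups did not overlap for *Relb*, though the nearest arrays were close. The log2 fold change was 0.53 (standard error 0.20, 95% interval 0.05 to 1.01, adjusted p = 0.0954).
*Nfkb2*, the precursor of p52, read 7.15 and 7.18 against 7.32 and 7.32. The groups did not overlap, and the log2 fold change was 0.16 (95% interval -0.12 to 0.44, adjusted p = 0.369).

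Among the feedback inhibitors, *Nfkbia*, which encodes IκBα, had the largest positive value of the 9 members. It read 9.27 and 9.08 in *lal+/+* and 9.75 and 9.82 in *lal−/−* cells, and the 2 knock-out arrays lay closely together above the wild type arrays. With a log2 fold change of 0.61 (1.53-fold, standard error 0.13, 95% interval 0.30 to 0.92) and an adjusted p of 0.0125 it missed the fold threshold. It passed in the other scalings, at 1.07 (2.10-fold, adjusted p = 0.000833) with the values as deposited and at 1.25 (2.37-fold, adjusted p = 0.000241) with the arrays shifted to a common median. *Nfkbia* and *Rel* had values of opposite sign in all 3 scalings, but they were picked above as the highest and lowest members. The members with a κB match had log2 fold changes of -1.39 (*Rel*), -0.08 (*Tnfaip3*), 0.16 (*Nfkb2*), 0.17 (*Nfkbie*) and 0.61 (*Nfkbia*).

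*Bcl3*, a nuclear IκB protein, binds p50 and p52 dimers. Its levels were 6.54 and 6.60 in *lal+/+* and 6.98 and 7.04 in *lal−/−* cells, a narrow and complete separation. The log2 fold change of 0.43 (95% interval 0.15 to 0.72, adjusted p = 0.0346) was below the fold threshold, and the wild type mean of 6.57 lay below the limit of the silent genes. Without the fold threshold *Nfkbia* and *Bcl3* were higher and *Rel* lower, 3 of 9 members, against 29.6% of all genes (19.8% higher and 9.85% lower).

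The remaining 3 members gave small values in quantile normalized data. *Tnfaip3*, which encodes A20, read 8.16 and 8.16 in *lal+/+* and 8.06 and 8.11 in *lal−/−* cells, which differed by -0.08 on the log2 scale (95% interval -0.36 to 0.21, adjusted p = 0.677). This sign turned in other scalings, to 0.20 with the values as deposited and 0.38 with a common median. *Nfkbiz*, which encodes the nuclear protein IκBζ needed for a set of secondary response genes, read 9.91 and 10.07 against 10.05 and 9.98, the one member whose genotypes overlapped. Its log2 fold change of 0.02 (95% interval -0.28 to 0.33) became 0.52 (adjusted p = 0.0166) as deposited and 0.70 (adjusted p = 0.00318) with a common median, and was -0.06 without *lal+/+* replicate 1 and -0.01 without *lal−/−* replicate 1.
*Nfkbie*, which encodes IκBε, read 6.26 and 6.10 against 6.34 and 6.36, with a wild type mean below the limit of the silent genes. The log2 fold change was 0.17 (95% interval -0.13 to 0.47), and -0.01 with the values as deposited. On the quantile normalized scale the 95% intervals of *Tnfaip3*, *Nfkbiz* and *Nfkbie* all ended short of a 2-fold change. With the arrays shifted to a common median the interval of *Nfkbiz* reached 1.03.

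**Figure D2:**
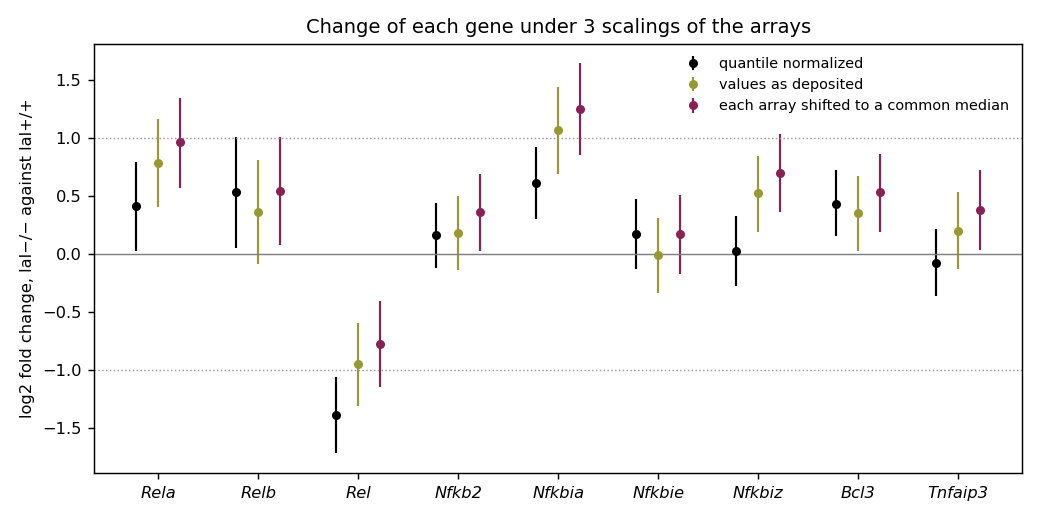
Log2 fold change of *lal−/−* against *lal+/+* cells (vertical axis) for each gene, as points with 95% intervals of the moderated fit (n = 2 arrays for each genotype), under 3 scalings of the arrays, with dotted lines at a 2-fold change. *Rel* lies below 0 and *Nfkbia* above 0 in all 3. *Rel* is beyond the 2-fold line after quantile normalization only, and *Nfkbia* in the other 2 scalings only.

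The scalings differ most for strongly expressed genes. Over all genes the median change on the log2 scale was 0.08 after quantile normalization, -0.05 as deposited and 0.12 with a common median, whereas that of the brightest 10% of genes was 0.28, 0.68 and 0.85. Among all genes in these scalings, in the same order, *Rel* stood at percentile 1.67, 3.52 and 3.52, and *Nfkbia* at 85.3, 91.0 and 91.0.

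Markers of other cells moved on the same arrays, where 7.56% of all genes were called higher and 3.24% lower. Of 15 measured B cell markers 14 were lower and 0 higher in *lal−/−* preparations, among them *Ms4a1* (log2 fold change -5.26) and *Cd79b* (-3.95), and the mean level of the list was 9.16 to 9.31 on the *lal+/+* and 6.31 to 6.43 on the *lal−/−* arrays. In *lal−/−* cells 6 of the 15 markers lay below the limit of the silent genes there (6.29), against 9446 of all 19938 genes. Among the 6 were *Ms4a1*, *Cr2* and *Ebf1*. In *lal+/+* cells 1 of the 15 markers and 12669 of all genes lay below the limit there (6.79). Of 12 T and NK cell markers 6 were lower and 1, *Cd3d*, higher (mean level 7.77 to 7.89 against 6.90 to 6.98). Of 15 markers of monocytes, macrophages and dendritic cells 9 were lower and 1 higher (8.24 to 8.33 against 6.75 to 6.77). Neutrophil lineage markers went the other way, with 12 of 18 higher and 1 lower (9.78 to 9.81 against 11.31 to 11.32). That list was mixed, from *Ctsg* (3.78) and *Mpo* (3.75) to *S100a8* (0.05), *Cxcr2* (0.03) and the lower one, *Csf3r* (-1.91). Markers of mature neutrophils, 2 higher and 3 lower of 9, had nearly equal means (10.78 to 10.84 against 10.72 to 10.75). Of 6 erythroid markers 0 were called (7.32 to 7.33 against 7.32 to 7.44). With limma 2 of these had an unadjusted p under 0.05, against 40.6% of all genes. The part of these cells in the lower level of *Rel* was not tested. In RNA of a whole preparation, fewer cells of a type and less RNA in each cell cannot be told apart.

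**Figure D3:**
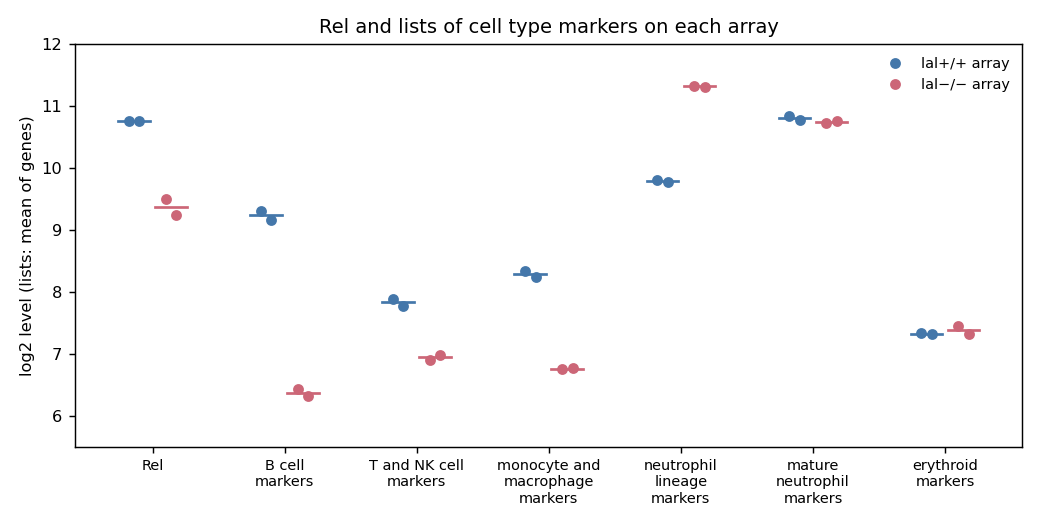
Log2 level of *Rel* and mean log2 level of 6 lists of cell type markers (vertical axis) on each array, 1 point for an array, colored by genotype, with a bar at the mean of the 2 arrays. *Rel* and the lists of B cells, of T and NK cells, and of monocytes and macrophages lie lower in *lal−/−* preparations, and the neutrophil lineage list lies higher.

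The other parts of the pathway were described by lists ordered from the receptor inward. Of 20 measured receptors that signal to NF-κB 3 were higher and 2 lower, against 7.56% higher and 3.24% lower among all genes. The median difference of the receptors on the log2 scale was 0.22. *Il18r1*, a subunit of the interleukin-18 receptor, read 7.95 and 7.28 in *lal+/+* and 9.43 and 9.64 in *lal−/−* cells, well apart (log2 fold change 1.93, standard error 0.22, adjusted p = 0.000978). *Tnfrsf1a*, the main receptor of tumor necrosis factor, read 8.22 and 8.06 against 9.57 and 9.45, 2.57-fold higher (adjusted p = 0.000456). *Tlr7*, a sensor of single-stranded RNA, was higher by 1.11, although its wild type mean of 6.46 lay below the limit of the silent genes, and it missed the fold threshold without *lal+/+* replicate 2 (0.91) or *lal−/−* replicate 2 (0.88).
The 2 lower receptors were *Cd40* (log2 fold change -1.28) and *Tnfrsf13c* (-1.18), which encodes the receptor of the B cell survival factor BAFF. Both are best known from B cells, whose markers fell on the same arrays, and the part of those cells in these values was not tested. *Tnfrsf13c* missed the fold threshold in the other 2 scalings (-0.92 and -0.74). *Tlr4* (0.33) and its partner *Cd14* (0.59, adjusted p = 0.0130) did not pass, though *Cd14* did so with a common median (1.17).

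Of 17 adaptors and ubiquitin ligases 1 was higher and 2 were lower, against 7.56% and 3.24% of all genes, and their median was 0.28. *Malt1*, the protease of the complex that links antigen receptors and C-type lectin receptors to NF-κB, read 10.07 and 10.02 in *lal+/+* and 8.85 and 8.83 in *lal−/−* cells. This was a log2 fold change of -1.20 (2.30-fold lower, adjusted p = 0.000530), and like *Rel* it missed the fold threshold with the values as deposited (-0.76) and with a common median (-0.58). *Traf1*, an adaptor of TNF receptors and itself a known NF-κB target, was also lower (log2 fold change -1.11), with a *lal−/−* mean of 5.77 that lay below the limit of the silent genes there. *Tirap*, which brings MyD88 to Toll-like receptors, was higher (1.03, adjusted p = 0.0130), but not without *lal+/+* replicate 2 (0.69) or *lal−/−* replicate 1 (0.95). *Myd88* itself read 9.16 and 9.13 against 10.21 and 10.07. At 1.99-fold it lay just under the fold threshold (adjusted p = 0.00132) and passed it in the other 2 scalings (1.45 and 1.63). *Traf6*, the ubiquitin ligase downstream of MyD88, read below the limit of the silent genes in both genotypes and had a log2 fold change of 0.33.

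Of 12 kinases, among them the IKK complex and the kinases above it, 0 were called by limma, 4 had an unadjusted p under 0.05, and all 12 log2 fold changes were above 0 (0.05 to 0.88, median 0.27), but 11 of 12 with the values as deposited. Among all genes 40.6% had an unadjusted p under 0.05 and 59.7% a log2 fold change above 0, so that the share of kinases at this p was not above that of all genes. An ordinary linear model for each probe set gave 2 at an unadjusted p under 0.05 and called 0. *Ikbkb*, the catalytic subunit IKKβ, had a log2 fold change of 0.20 (95% interval -0.10 to 0.50), and *Ikbkg*, the scaffold NEMO, one of 0.51 (adjusted p = 0.0301). *Map3k14*, the kinase NIK of the alternative pathway, was at 0.24. The wild type means of *Ikbkg* (6.42) and *Map3k14* (6.34) lay below the limit of the silent genes. *Chuk*, which encodes IKKα, was not analysed here. With a common median 3 of the 12 were called higher, against 2620 of all 19938 genes in that scaling.
Of 18 further inhibitors, deubiquitinases and IκB proteins 2 were higher and 0 lower (median 0.12), against 7.56% and 3.24% of all genes. With limma 4 had an unadjusted p under 0.05 and with the ordinary model 5, against 40.6% and 28.5% of all genes. Neither share was above that of all genes. *Commd1*, which promotes the degradation of RelA, read 8.23 and 8.49 in *lal+/+* and 9.63 and 9.53 in *lal−/−* cells, a clear gap of 1.22 on the log2 scale (2.34-fold, adjusted p = 0.000921). *Nfkbib*, which encodes IκBβ, read 6.25 and 5.93 against 7.07 and 7.18. It was 2.04-fold higher (adjusted p = 0.00248) from a wild type level below the limit of the silent genes, and missed the fold threshold with the values as deposited (0.93) and without *lal+/+* replicate 2 (0.87) or *lal−/−* replicate 2 (0.97). *Tnip1*, which encodes the A20 partner ABIN1, and the deubiquitinase gene *Cyld* had log2 fold changes of 0.06 (95% interval -0.24 to 0.36) and 0.02 (-0.37 to 0.41), and both signs turned when single arrays were left out.

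Known NF-κB target genes moved in both directions. Of 39 measured targets 8 were higher and 8 lower, against 7.56% higher and 3.24% lower among all genes. Both shares lay above those of all genes, in a list chosen with earlier results of these data known. In both genotypes 7 of the 39 targets lay below the limit of the silent genes, against 9217 of all 19938 genes. Targets and all genes thus differed in level as well. The log2 fold changes of the targets had a median of -0.08, which was 0.04 as deposited and 0.22 with a common median. *Tnf*, which encodes tumor necrosis factor, read 7.14 and 6.67 in *lal+/+* and 9.31 and 9.13 in *lal−/−* cells, the widest increase of the list (log2 fold change 2.31, standard error 0.18, 4.97-fold, adjusted p = 0.000213). *Mmp9*, a matrix metalloproteinase stored in neutrophil granules, read 10.41 and 10.23 against 12.41 and 12.37, also without overlap and 4.20-fold higher (adjusted p = 0.000107). *Plau*, the urokinase gene, and *Ebi3*, a subunit of interleukins 27 and 35, were higher by 1.77 and 1.64. *Plau* lay below the limit of the silent genes in wild type cells. *Sod2*, the mitochondrial superoxide dismutase, was 2.28-fold higher (adjusted p = 0.00213), with 0.99 in place of 1.19 without *lal+/+* replicate 2.

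The targets that fell included *Il1b*, which encodes interleukin-1β and which read 12.64 and 12.62 in *lal+/+* and 10.68 and 10.59 in *lal−/−* cells. The 2 cytokine genes *Tnf* and *Il1b* thus changed in opposite directions, the latter 3.98-fold lower (adjusted p = 0.000101). *Ptgs2*, the inducible cyclooxygenase, read 9.68 and 9.67 against 7.92 and 8.12 and was 3.14-fold lower (adjusted p = 0.000218). *Vcam1*, an adhesion molecule, read 11.44 and 11.40 against 7.75 and 7.62, 13.3-fold lower (adjusted p = 2.34e-05). *Cd86*, a costimulatory ligand of antigen presenting cells, was 3.50-fold lower. *Vcam1* also belongs to the monocyte and macrophage markers, which fell on the same arrays, and *Il1b*, *Ptgs2* and *Mmp9* to those of mature neutrophils. The part of the cell makeup in these values was not tested. *Icam1*, another adhesion molecule, did not pass, at -0.45 on the log2 scale (adjusted p = 0.0429).

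**Figure D4:**
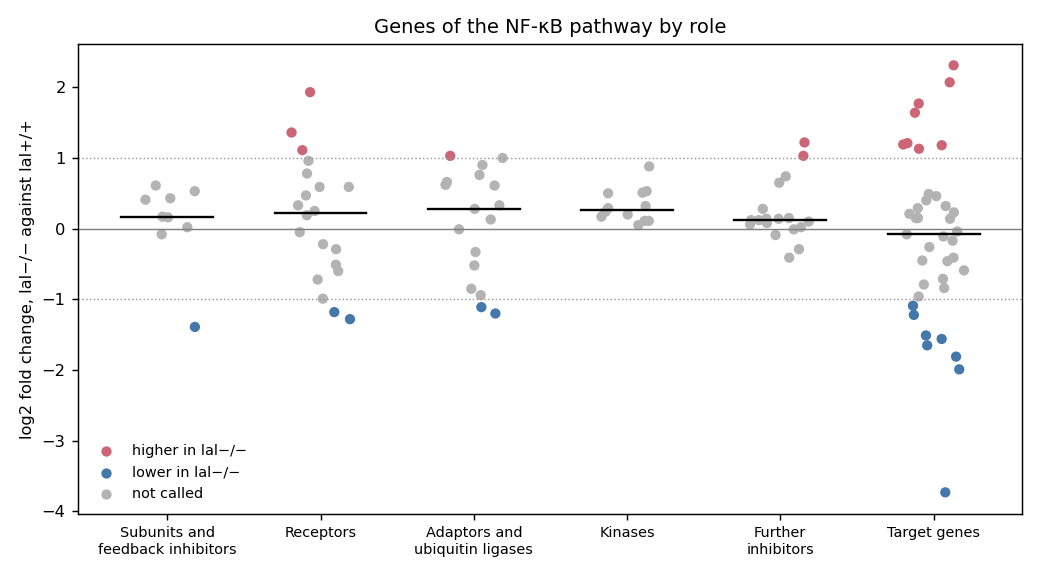
Log2 fold change of *lal−/−* against *lal+/+* cells (vertical axis) for each measured gene of the NF-κB pathway, 1 point for a gene, grouped by role, with the called genes in color, a black bar at the median of the group and dotted lines at a 2-fold change. *Rel* is the only called point among the subunits and feedback inhibitors, no kinase was called, and the targets spread from -3.73 (*Vcam1*) to 2.31 (*Tnf*).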

How the data were processed

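Gene expression was measured on 4 arrays, 2 of *lal+/+* and 2 of *lal−/−* bone marrow MDSCs, grouped by the genotype in the labels. The values that the authors deposited are log2 values, obtained with the RMA algorithm of Partek Genomics Suite per the methods, and the submitters' processing notes name GCOS 1.1. Of 35557 probe sets 21789 name 1 gene, 1621 name several, and 12147 have no gene in the table used here. Current symbols were found for 21698 of those with 1 gene, and the other 91 kept the symbol of the table. The probe set with the highest mean stood for a gene. No depth exists for arrays, and their number limits the precision.

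Deposited array medians lay up to 0.208 apart, above a limit of 0.1, and the arrays were therefore quantile normalized. Per the methods RMA had already normalized the deposited values, so this was a further normalization. Quantile normalization assumes that all arrays have the same distribution of levels. Genotype was fitted with limma 3.58.1 in R 4.3.3 (lmFit and eBayes, with 2 residual and 4.83 prior degrees of freedom). Adjustment was by Benjamini-Hochberg across probe sets with 1 gene name. 40.9% of these had an unadjusted p under 0.05. The methods' model has a tissue term, which could not be fitted with 1 tissue. The fit was tested on simulated data in which few probe sets changed, unlike here, so that test does not bear on these calls. Levels of 1023 olfactory receptor probe sets gave the limit of silent genes, their 95th percentile in each genotype (6.79 and 6.29).

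The genes named are the 10 members, *Lipa*, *Ly6g* and *Itgam* as checks, up to 4 called genes of each pathway list in each direction, a fixed group of pathway genes whatever their result, and examples of the marker lists. Members and lists were chosen with earlier results of these data known. As alternatives, the arrays were used as deposited or shifted to a common median, probe sets under the median level (6.27) were left out, and p-values were adjusted across the whole table. Variances were moderated with a robust intensity trend or not at all, in an ordinary linear model. The replicate number was added as a block, the fold threshold was dropped, the adjusted p was required to be under 0.01, probe sets of a gene were averaged, and every array was left out once.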

Additional observations from a re-analysis of the deposited data

How the results depend on the processing

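The count of members called lower was 0 in place of 1 with a common median, with the values as deposited and in the ordinary linear model, and the count called higher was 1 in place of 0 with either scaling and 2 without the fold threshold. The members' median was 0.53 with a common median, 0.35 as deposited and 0.28 over the 8 members at or above the median level. With a common median 2620 of all genes were higher and 466 lower. Higher among the lists were 3 kinases, 4 adaptors, 3 further inhibitors, 6 receptors and 8 targets. Lower with a common median were 0 kinases, 1 adaptor, 0 further inhibitors, 1 receptor and 7 targets. As deposited, 2013 of all genes were higher and 632 lower. Among the lists 1 kinase, 4 adaptors, 1 further inhibitor, 5 receptors and 8 targets were higher. Called lower as deposited were 0 kinases, 2 adaptors, 0 further inhibitors, 1 receptor and 8 targets. Of all calls 70.0% were higher, 84.9% with a common median and 76.1% as deposited. Without the fold threshold 3938 of all genes were higher and 1963 lower. Higher among the lists were then 3 kinases, 7 adaptors, 4 further inhibitors, 7 receptors and 9 targets. Lower were 0 kinases, 5 adaptors, 0 further inhibitors, 6 receptors and 14 targets. The ordinary linear model, with 2 residual degrees of freedom, called 0 genes of every list and 0 of all genes in either direction, although 5691 had an unadjusted p under 0.05 (*Rel*: adjusted p = 0.0842). With an adjusted p under 0.01, 0 adaptors were higher. With each array left out in turn, the lone array being assumed to vary like the others, 0 to 2 adaptors and 1 to 2 further inhibitors were higher, and 0 members were higher and 1 lower each time. Signs turned for *Nfkbie* (-0.01 as deposited), *Tnfaip3* (0.38 with a common median, 0.20 as deposited), *Nfkbiz* (-0.06 without *lal+/+* replicate 1 and -0.01 without *lal−/−* replicate 1, range -0.06 to 0.10 with single arrays left out), *Tnip1* (-0.02 without *lal+/+* replicate 2, range to 0.15) and *Cyld* (-0.18 without *lal+/+* replicate 2 and -0.02 without *lal−/−* replicate 1, range to 0.23). The cause of these changes was not tested. Deviations of same-numbered arrays correlated at -0.18, nothing in the labels ties them to a shared animal or day, and the numbers were not treated as pairs. With the replicate block, and with a crossed block chosen after seeing the data, 0 members were higher and 1 lower, 1508 of all genes were higher and 646 lower, and all 41 named genes kept their direction and call.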

Other observations

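*Bcl2a1*, a small family of anti-apoptotic genes known as NF-κB targets, could not be counted among the targets because most of its probe sets name several genes. 3 probe sets naming 4 *Bcl2a1* genes read 11.25 to 11.54 on the *lal+/+* and 9.14 to 9.39 on the *lal−/−* arrays. Their log2 fold changes were -2.14, -2.08 and -2.10 (adjusted p = 0.00225 for each from limma, adjusted over all 35557 probe sets). A probe set that names *Bcl2a1c* alone read 9.07 and 8.87 against 7.49 and 7.51, 2.77-fold lower (adjusted p = 0.0037). The near-identical copies share sequence, and which of them the signal came from cannot be told apart. These probe sets were chosen after their values were seen.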
